A study of Mus musculus with 16 samples.

Results

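The genes described here are the transcription factor gene Myc and 32 genes whose products make or assemble ribosomes, 33 of the 55401 genes in the deposited tables. They were taken by symbol, each matched to 1 mouse Ensembl gene. The rule uses symbols only, but earlier results of these data were known when the list was made. All 33 passed the filter on low counts and were among the 15277 genes tested in each comparison. By role they fell into Myc itself, 2 subunits of RNA polymerase I, the RNA helicase gene Ddx21, 5 genes of general nucleolar proteins, 6 genes of small nucleolar ribonucleoproteins (snoRNPs), 7 genes of small subunit maturation and 11 genes of large subunit maturation.

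MYC binds DNA together with MAX and raises the transcription of genes for growth, and ribosome synthesis is among its best known programmes. In the nucleolus RNA polymerase I transcribes the precursor of ribosomal RNA, snoRNPs modify its bases and riboses, and large assemblies of processing factors then cut and fold it with ribosomal proteins into a small and a large subunit. CD8+ T cells are known to raise MYC and ribosome synthesis when antigen drives them into division, and IL-2 is known to sustain MYC in dividing effector cells.

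The libraries came from OT-I CD8+ T cells, whose transgenic receptor recognises a peptide of ovalbumin, taken from spleens of male and female mice 8 to 12 weeks old. Cells were activated with the peptide for 3 days and then kept for 4 days in IL-2, which gave effector cells (TE, EFFECTOR in the labels), or in IL-15, which gave memory cells (TM, MEMORY in the labels). WT cells were set against TPdh-/- cells (genotype PDH_Mutant in the labels), in which a floxed Pdha1 allele (Pdha1tm1ptl) was deleted by Cre under the Cd4 promoter (Tg(Cd4-cre)1Cwi). Pdha1 encodes a catalytic subunit of pyruvate dehydrogenase, the mitochondrial complex that feeds carbon from glycolysis into the tricarboxylic acid cycle, and the study asked how its loss changes gene expression in T cells. The Cd4 promoter acts in the thymus before the CD8 lineage is set, so the allele was lost long before the cultures began. The labels did not say whether WT mice carried the transgene or the floxed allele. Each combination had 4 libraries: 1 to 4 were WT TE, 9 to 12 WT TM, 5 to 8 TPdh-/- TE and 13 to 16 TPdh-/- TM. Nothing in the labels tied each library to its own animal or culture. The study describes its samples as discrete and counts more mice per condition than there are libraries here, without tying a library to a mouse. The p-values therefore measure the spread between libraries, which may be technical. That spread was estimated over all 4 groups together, although it differed between them. The members' median coefficient of variation was 20.8% in TPdh-/- TE, 5.38% in WT TE, 6.40% in WT TM and 5.84% in TPdh-/- TM. Tests that use TPdh-/- TE thus rest on a smaller spread than that group's own.

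A RefSeq promoter window (build GRCm38.p6), from 250 bases before to 50 after the transcription start, was on hand for 27 of the 33 members. The windows were searched for the E-box CACGTG, the sequence that MYC and MAX are best known to bind. These letters read the same on both strands, so 1 search covered both, and no other motif was searched. At least 1 E-box lay in the window of 6 of the 27 members (22.2%), beside 11.5% of the 10410 tested genes with a window and 8.09% of all 27025 genes with a window. In the last 200 bases of the window the share was again 6 of 27 members (22.2%), beside 9.09% of the tested genes. The 6 sites are printed because they are the only places in the members' windows that hold these letters, each with up to 12 bases on either side as far as the window reached, 5′ to 3′ on the strand of the gene and with the E-box in capitals. A match is a description of the letters and not a measured binding site.
Nop2: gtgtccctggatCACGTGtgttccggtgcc
Utp20: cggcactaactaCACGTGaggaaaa
Pes1: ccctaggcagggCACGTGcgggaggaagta
Mybbp1a: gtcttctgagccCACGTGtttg
Tsr1: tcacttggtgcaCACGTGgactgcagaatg
Wdr43: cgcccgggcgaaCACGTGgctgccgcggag

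The Nop2 site lay at chr6:125131811-125131840 on the plus strand, and its E-box began 60 bases before the RefSeq start. In the 5 other genes the E-box began after the start: at base 38 in Utp20 (chr10:88826765-88826789, minus strand), base 3 in Pes1 (chr11:3963965-3963994, plus strand), base 41 in Mybbp1a (chr11:72441355-72441376, plus strand), base 25 in Tsr1 (chr11:74898092-74898121, plus strand) and base 18 in Wdr43 (chr17:71616220-71616249, plus strand). Nop2 encodes a ribosomal RNA methyltransferase of the large subunit, Mybbp1a a nucleolar MYB-binding protein, Pes1 a factor of the large subunit, and Utp20, Tsr1 and Wdr43 factors of the small subunit. The window of Myc was not among those on hand.

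Libraries held 53007257 to 73507566 counts assigned to genes, and the members together held 0.526% to 0.786% of them. Pdha1, the targeted gene, was at 160 to 162 counts-per-million (CPM, counts scaled by TMM-adjusted library totals) in WT TE and 147 to 156 in TPdh-/- TE, and at 169 to 194 in WT TM and 141 to 160 in TPdh-/- TM. These are counts over the whole gene and do not test the loss of 1 floxed exon. All 8 CD8 T cell markers were detected, with a summed level of 3088 to 5056 transcripts-per-million (TPM). Summed markers of NK cells (8 genes) were at 77.8 to 120 TPM in TPdh-/- TM and 6.29 to 24.5 in the 12 other libraries. Summed markers of gamma-delta T cells (6 genes) were at 159 to 317 TPM in the TPdh-/- libraries and 56.2 to 101 in WT. The 8 other lists (B, CD4 T, plasma, dendritic, erythroid, mast cells, neutrophils, and macrophages with monocytes) summed to at most 46.5 TPM in any library, and no list had a gene at 0 in every library. Among the members, library 5 was the highest of TPdh-/- TE in 32 of 33 genes and library 12 the highest of WT TM in 20. Libraries 2 and 14 were also the highest of their groups in 20. Over all tested genes library 5 was the highest of its group in 29.9% and library 7 in 29.4%. The counts that move most without libraries 5 and 12 are given both ways.

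Levels of the members differed widely. In TPM, which allows for gene length, Npm1 was the highest in all 4 groups, at 2431 ± 43.9 TPM in WT TE (SD, n = 4). Npm1 encodes nucleophosmin, the main protein of the granular part of the nucleolus, and alone made up 55.7% of the members' summed TPM in WT TE. Next in WT TE came Ncl (nucleolin, which binds ribosomal RNA and its genes) at 423 ± 9.78 TPM. Nop56, a core protein of the box C/D snoRNP, followed at 204 ± 12.02 TPM, and Fbl (fibrillarin, the methyltransferase of the same particle) at 194 ± 13.8 TPM. Nop56 and Fbl did not differ beyond their spread in this order. At the low end were Rrp12 at 5.79 ± 0.244 TPM and Utp20 at 6.39 ± 0.462 TPM, both of small subunit maturation. Myc ranked 19 of 33 in WT TE at 27.9 ± 1.698 TPM and was at 64.8 ± 17.5 TPM in WT TM. Summed over the members, TPM ran from 4296 to 4419.8 in WT TE and from 5113 to 6519.8 in TPdh-/- TE. In TM the sums were 4583 to 5666 in WT and 4507 to 4698 in TPdh-/-, and the highest WT sum was that of library 12.

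**Figure D1:**
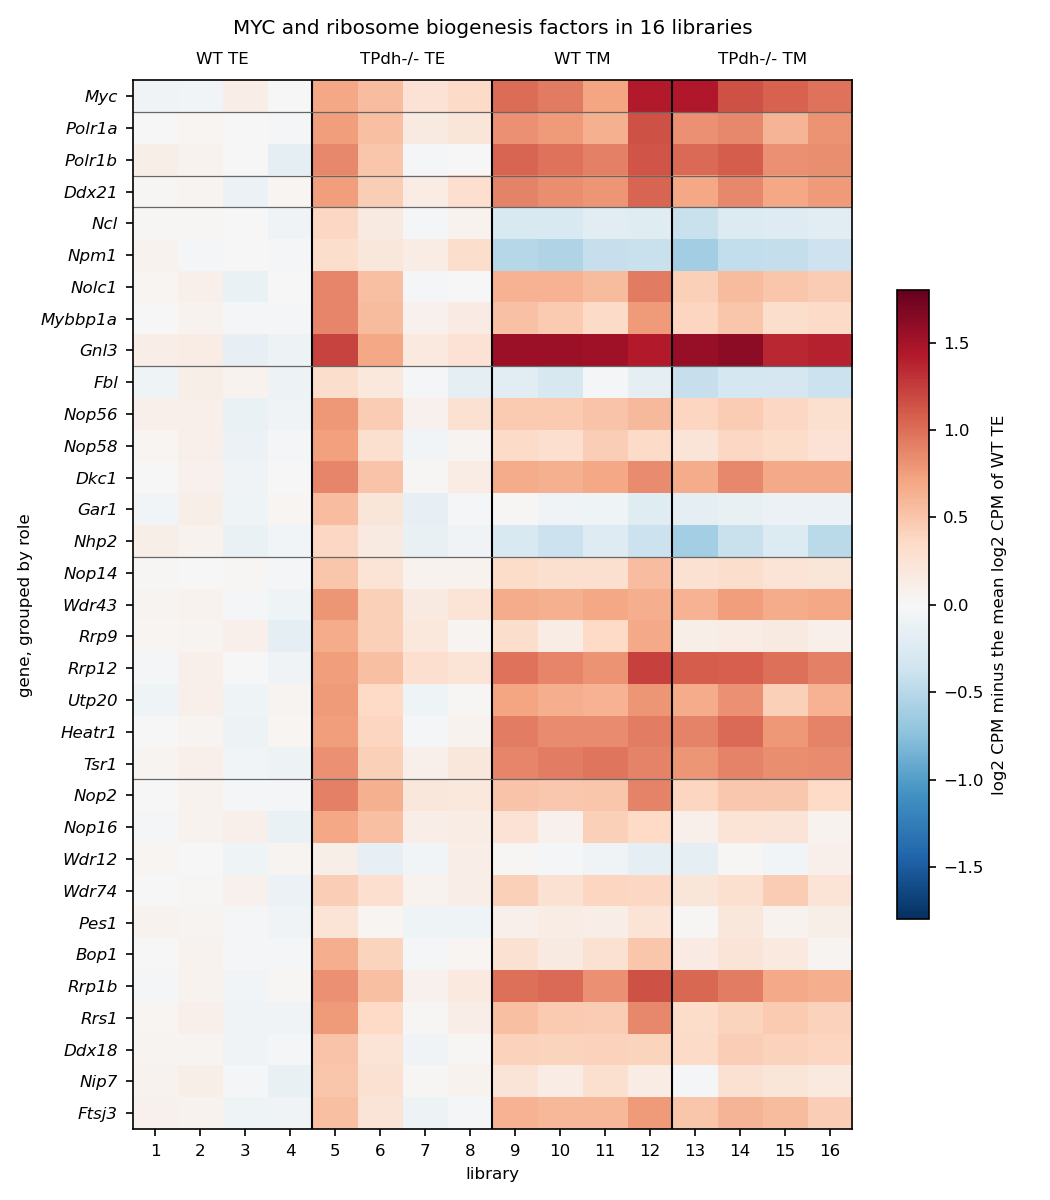
Level of each of the 33 genes (lines, grouped by role) in each of the 16 libraries (columns), as log2 CPM minus the mean log2 CPM of the 4 WT TE libraries, with red above and blue below that mean. Libraries 5 and 6 of TPdh-/- TE stand out in red across most genes, and in all 8 TM libraries most genes are red while Ncl, Npm1, Nhp2 and Fbl are below the WT TE mean.

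Most members were higher in TM than in TE cells in WT. In this comparison 25 of the 33 were called higher in TM and 3 lower by edgeR's quasi-likelihood test, where a call is an adjusted p under 0.05 over all tested genes, with 34.3% of all tested genes called higher and 34.3% lower. The median log2 difference (TM minus TE) of the members was 0.53, beside 0.01 over all tested genes. All 4 TM libraries were above all 4 TE libraries in 26 members (31.7% of all tested genes) and below them in 3 (32.2%). Without library 12 there were 22 calls higher and 3 lower (32.9% and 34.6% of all tested genes), with Nop16, Bop1 and Rrp9 no longer called. In bulk RNA, more cells of a kind and more RNA per cell cannot be told apart. Summed markers of proliferation (15 genes) moved the other way, at 2482 to 2723 TPM in WT TE and 1527 to 1733 in WT TM, and summed genes of handling and heat shock (9 genes) were at 49.6 to 53.7 TPM in WT TE and 91.2 to 142 in WT TM, with library 12 at 142. In the latter list Fosb rose from a median of 8.905 to 42.0 TPM, while Atf3 fell from 0.46 to 0.075. Its heat shock genes Hspa1a and Hspa1b were at most 0.05 TPM in both groups. Summed CD8 T cell markers were at 3967 to 4244 TPM in WT TE and 4833 to 5056 in WT TM, though Cd3g, Trac and Cd2 had lower medians in WT TM. The part of these markers in the difference was not tested.

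Myc was among the members with the largest difference. It was at 44.9, 45.2, 50.7 and 46.8 CPM in WT TE and at 93.8, 89.6, 76.8 and 126 CPM in WT TM, a log2 difference of 1.04 ± 0.15 (SE; edgeR adjusted p = 1.9e-06). Every TM library was above every TE library, and library 12 was the highest. Polr1a, which encodes the largest subunit of RNA polymerase I, was at 64.8, 66.7, 64.7 and 64.5 CPM in WT TE and 115, 111, 101 and 145 in WT TM (0.85 ± 0.11, edgeR adjusted p = 4.9e-06). Polr1b, for the second largest subunit, was at 25.5, 24.9, 23.7 and 21.1 CPM in WT TE and 48.9, 46.9, 44.6 and 52.1 in WT TM (1.01 ± 0.08, edgeR adjusted p = 9.5e-06). Both subunits were higher in TM with no overlap between the groups. Ddx21, an RNA helicase of ribosomal RNA transcription and processing, was at 215, 221, 198 and 218 CPM in WT TE and 396, 379, 369.6 and 438 in WT TM (0.90 ± 0.06, edgeR adjusted p = 3.2e-07), also without overlap.

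General nucleolar proteins split by direction. Gnl3, which encodes the nucleolar GTPase nucleostemin, had the largest difference of any member: it was at 57.2, 57.6, 47.6 and 49.4 CPM in WT TE and 153, 154, 152 and 141 in WT TM, a log2 difference of 1.5 ± 0.08 (edgeR adjusted p = 3.1e-07). Library 12, which was the highest of its group in 20 of 33 members, was the lowest of its group in Gnl3. Npm1 went the other way, from 2117, 1992, 2026 and 1991 CPM in WT TE to 1422, 1399, 1526 and 1539.8 in WT TM (-0.47 ± 0.04, edgeR adjusted p = 2.8e-06). Ncl was at 1471, 1470.1, 1459 and 1389 CPM in WT TE and 1200.3, 1197, 1256 and 1241 in WT TM (-0.24 ± 0.03, edgeR adjusted p = 0.0050). In both genes every TM library was below every TE library in CPM. In TPM library 12 lay at 2461 for Npm1 and 474 for Ncl, above 3 and above all 4 of the WT TE libraries. On the scale of log2(TPM + 0.1), tested with limma, Npm1 was still called lower (-0.24), while Ncl (-0.04) and Nhp2 (-0.14) were not. The 2 other genes of this role, Nolc1 (0.69), whose product escorts snoRNPs, and Mybbp1a (0.53), were called higher.

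Among the snoRNP genes, 3 of 6 were called higher in TM and 1 lower, beside 34.3% of all tested genes in each direction. Dkc1, the pseudouridine synthase of the box H/ACA snoRNP, was at 116, 122, 111 and 115 CPM in WT TE and 185, 181, 189 and 208 in WT TM (0.72 ± 0.05, edgeR adjusted p = 9e-05). Its partner Nhp2 was called lower, with 35.9, 34.96, 30.8 and 32.1 CPM in WT TE and 27.7, 25.5, 28.4 and 25.6 in WT TM (-0.32 ± 0.06, edgeR adjusted p = 0.0085), so members of 1 particle were called in opposite directions. The third H/ACA member, Gar1, was not called (-0.08). Of the box C/D genes, Nop56 (0.51) and Nop58 (0.35) were called higher, while Fbl was at 156, 177, 173 and 155 CPM in WT TE and 145, 135, 162 and 146 in WT TM (-0.17 ± 0.07, edgeR adjusted p = 0.089) and was not called. Sequences nearly identical to Fbl lie in other genes of the annotation, and those genes held 38.0% as many counts as Fbl, so its level is uncertain. The same held for Wdr12, at 37.9%, and for no other member above 0.33%.

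All 7 genes of small subunit maturation were called higher in TM (34.3% of all tested genes were), with log2 differences from 0.37 (Nop14) to 0.98 (Rrp12). Rrp12, which in yeast takes part in the export of both subunits, was at 22.004, 23.8, 22.2 and 21.4 CPM in WT TE and 44.05, 41.1, 39.1 and 52.2 in WT TM (0.98 ± 0.10, edgeR adjusted p = 2e-07). Tsr1, a factor of late small subunit maturation, was at 55.4, 57.04, 51.3 and 49.8 CPM in WT TE and 97.7, 101, 104 and 98.8 in WT TM (0.91 ± 0.05, edgeR adjusted p = 9.9e-07). Neither overlapped between the groups. Of the 11 genes of large subunit maturation 8 were called higher and none lower by edgeR, beside 34.3% of all tested genes in each direction. At an unadjusted p under 0.05 there were 9 of 11, all higher (71% of all tested genes in either direction). DESeq2 and limma called none of the 11 lower either. The largest difference was that of Rrp1b, a nucleolar protein of ribosomal RNA processing, at 34.2, 36.3, 33.7 and 35.3 CPM in WT TE and 69.4, 70.7, 61.6 and 77.5 in WT TM (1.00 ± 0.07, edgeR adjusted p = 2.6e-06). Pes1 (0.15), Nip7 (0.19) and Wdr12 (-0.06) were not called. Pes1, Bop1 and Wdr12 encode the 3 proteins of the PeBoW complex of large subunit maturation, and Bop1 (0.30) was the only one of them called higher, though not without library 12.

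**Figure D2:**
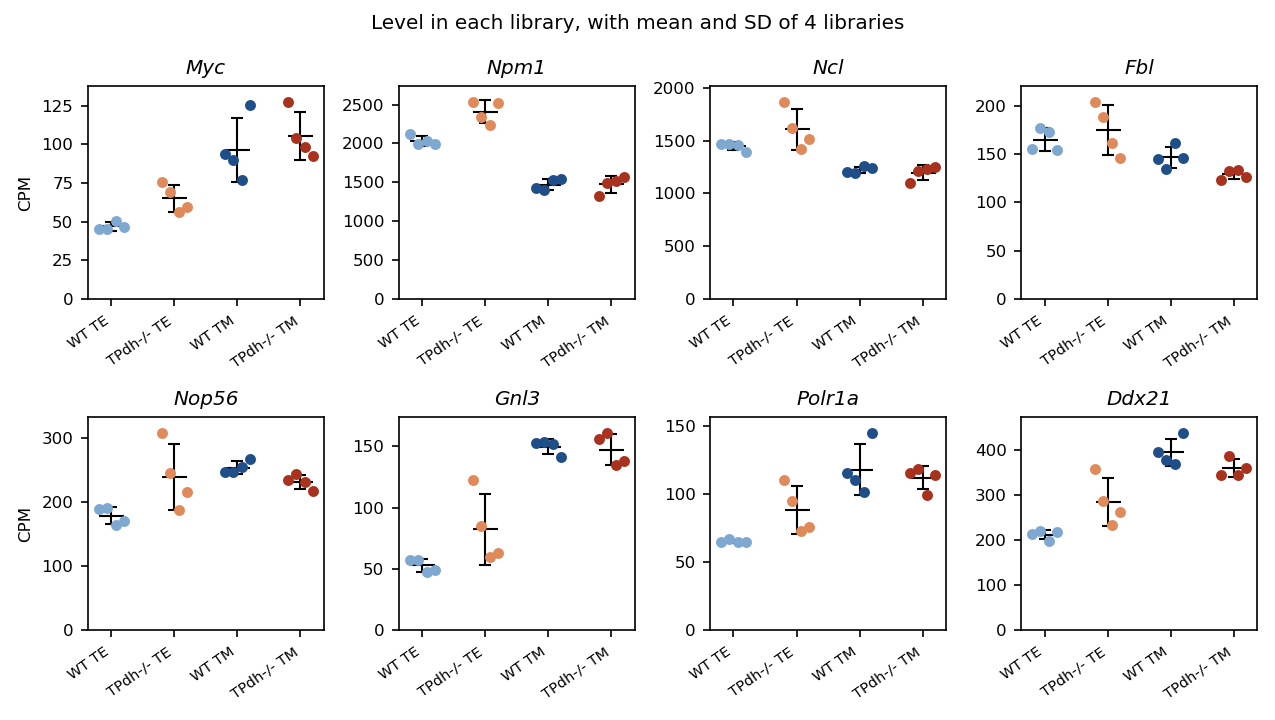
CPM of 8 members in each library (points), by group on the horizontal axis, with the mean and SD of the 4 libraries of a group in black. Myc, Gnl3, Polr1a and Ddx21 are higher in both TM groups than in WT TE, and Npm1 and Ncl are lower. The TPdh-/- TE libraries are widely spread in Gnl3, Nop56 and Ncl, and library 12 is the highest WT TM point in Myc, Polr1a and Ddx21.

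In TPdh-/- cells 8 members separated fully between TM and TE, among them Myc and Gnl3, higher in TM, and Npm1 and Ncl, lower in TM. By edgeR 14 were called higher in TM and 5 lower, with 33% and 34.7% of all tested genes, and the median log2 difference was 0.06, beside -0.003 over all tested genes. Groups did not overlap in 4 of 33 members that were higher in TM (Myc, Rrp12, Heatr1 and Gnl3, beside 29.1% of all tested genes) and 4 that were lower (Ncl, Npm1, Fbl and Nhp2, beside 30.7%). In both directions the share of members was smaller than that of all tested genes. Summed proliferation markers were at 2161 to 2496 TPM in TPdh-/- TE and 1136 to 1559 in TPdh-/- TM, CD8 T cell markers at 3088 to 3425 and 3943 to 4135, and NK markers at 13.4 to 24.5 and 77.8 to 120. Their part was not tested. This comparison rests on the TPdh-/- TE libraries, among which library 5 was the highest in 32 of 33 members. Without library 5 there were 18 calls higher and 4 lower, with 32% and 33.7% of all tested genes, and without library 7 or without library 8 there were 9 higher (32.6% and 32.2% of all tested genes). With only the 2 groups compared, 5 of the members called here were no longer called. In that fit 9764 genes were called in either direction, beside 10340 with all 4 groups. Whether TM differed from TE to another extent than in WT is what the interaction test compares.

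Myc was at 75.5, 69.1, 56.4 and 59.2 CPM in TPdh-/- TE and 128, 104, 98.2 and 92.3 in TPdh-/- TM, a log2 difference of 0.70 ± 0.14 (edgeR adjusted p = 0.00014). Gnl3 was at 123, 85.1, 59.5 and 62.9 CPM in TPdh-/- TE and 156, 161, 135 and 138 in TPdh-/- TM (0.84 ± 0.25, edgeR adjusted p = 0.00017). Rrp12 was at 37.7, 32.6, 27.5 and 26.4 CPM and 47.6, 46.8, 44.3 and 41.8 CPM (0.54 ± 0.13, edgeR adjusted p = 0.00015). All 3 were higher in every TM library than in every TE library, library 5 included. Npm1 had the smallest adjusted p of the members, at 2537, 2343, 2234 and 2521 CPM in TPdh-/- TE and 1318, 1489.9, 1512 and 1572 in TPdh-/- TM (-0.71 ± 0.07, edgeR adjusted p = 2.1e-08). Ncl was at 1869, 1625, 1419 and 1518 CPM and 1095, 1217, 1228 and 1252 CPM (-0.42 ± 0.10, edgeR adjusted p = 3.7e-05). In both, every TM library was below every TE library, as in WT.

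The snoRNP genes Nhp2 and Fbl were also lower. Nhp2 was at 43.1, 37.3, 30.3 and 31.8 CPM in TPdh-/- TE and 21.7, 25.2, 28.03 and 23.8 in TPdh-/- TM (-0.53 ± 0.14, edgeR adjusted p = 0.00014), and Fbl at 204, 189, 162 and 146 CPM and 124, 132, 134 and 127 CPM (-0.44 ± 0.11, edgeR adjusted p = 0.00021). Gar1 was the fifth member called lower (-0.30), but not without library 5 or without library 6. Dkc1 was called higher, with 212, 165, 118 and 127 CPM in TPdh-/- TE and 185, 211, 186 and 186 in TPdh-/- TM (0.30 ± 0.20, edgeR adjusted p = 0.044), but library 5 lay above all 4 TM libraries. The polymerase genes were called higher as well, Polr1a by 0.34 ± 0.15 (edgeR adjusted p = 0.015) and Polr1b by 0.57 ± 0.22 (edgeR adjusted p = 0.0023). Their groups overlapped, since library 5 was inside the range of TM for Polr1a and Polr1b. Of the 7 small subunit genes 5 were called higher, and of the 11 large subunit genes 3 were, namely Rrp1b, Ftsj3 and Ddx18. The share of all tested genes called higher was 33%, so the large subunit count was near it. The WT and TPdh-/- comparisons of TM with TE share no library.

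**Figure D3:**
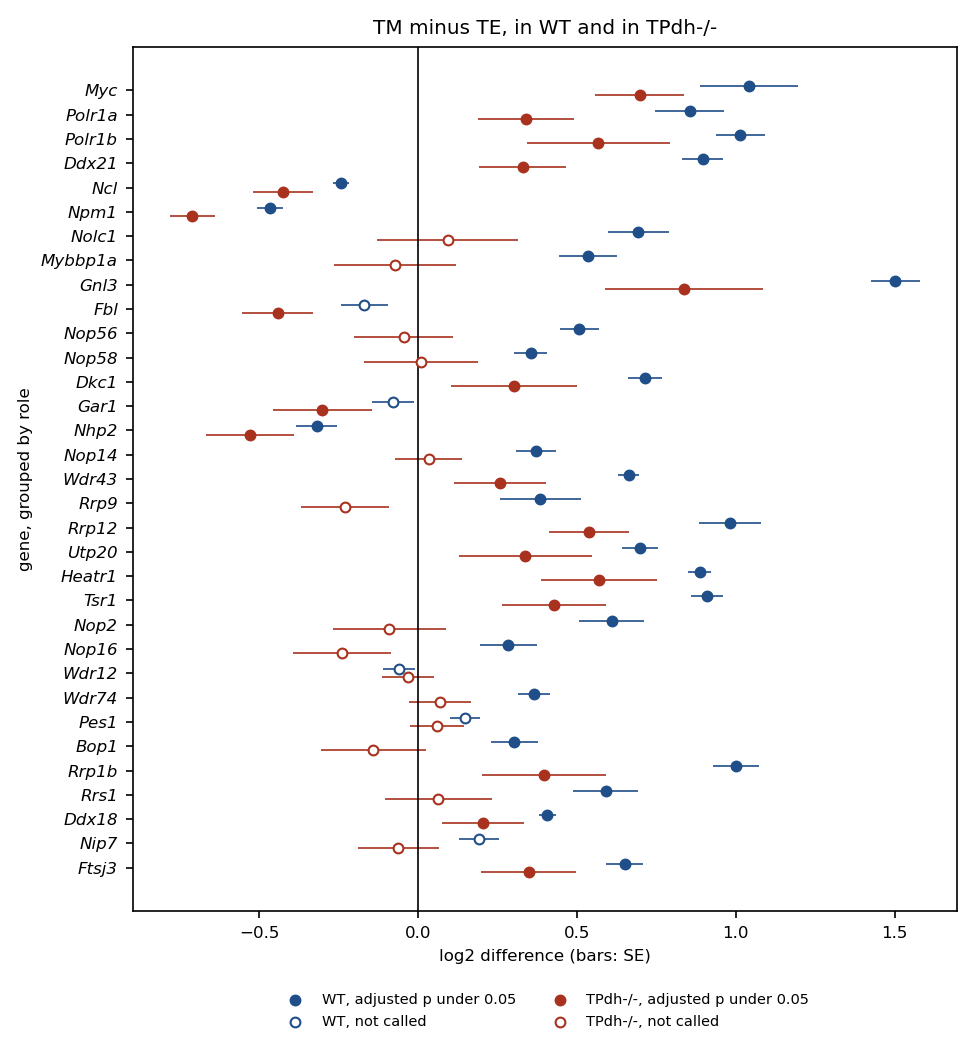
Log2 difference TM minus TE of each member in WT (blue) and in TPdh-/- (red), with the SE as bars and filled points for an adjusted p under 0.05. The WT points lie to the right of the TPdh-/- points for most genes, and Npm1, Ncl, Nhp2, Fbl, Gar1 and Wdr12 lie left of 0 in both.

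Within TE, loss of Pdha1 went with higher levels of many members. All 33 log2 differences (TPdh-/- minus WT) were above 0, 20 members were called higher by edgeR, with 17.3% of all tested genes, and none was called lower, with 14.3%. At an unadjusted p under 0.05 there were 27 members, all higher (41.4% of all tested genes in either direction), and DESeq2 called 21 higher and limma on log2 CPM 17, again none lower. The median was 0.34, beside -0.0003 over all tested genes. The groups did not overlap in 13 members, all higher (16.5% of all tested genes). Summed gamma-delta markers were at 90.5 to 101 TPM in WT TE and at 317, 233, 195 and 218 TPM in libraries 5 to 8, and summed proliferation markers were at 2482 to 2723 and at 2496, 2363, 2161 and 2253 TPM. Summed CD8 T cell markers were at 3967 to 4244 TPM in WT TE and at 3088, 3418, 3421 and 3425 in libraries 5 to 8. In that list Cd8a (median 315 TPM in WT TE and 320 in TPdh-/- TE) and Lck (523 and 530) were not lower. Cd8b1, Cd3d, Cd3e, Cd3g, Trac and Cd2 had lower medians in TPdh-/- TE. Genes of handling and heat shock summed to 49.6 to 53.7 TPM in WT TE and to 36.8, 38.9, 49.3 and 44.6 in libraries 5 to 8, so that they were lowest in libraries 5 and 6. In that list Fos, Fosb, Egr1 and Ier2 had lower medians in TPdh-/- TE, while Atf3, Jun, Junb, Hspa1a and Hspa1b had higher ones. Atf3 was at 0.21 to 0.69 TPM in WT TE and 1.15 to 3.33 in TPdh-/- TE. The part of all these markers in the difference was not tested.

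The members were highest in libraries 5 and 6. Library 5 was the highest of its group in 32 of 33 members (Wdr12 was highest in library 8), while it was the highest in 29.9% of all tested genes. In 31 of 33 members library 5 was above library 6 and library 6 above both others, an order held by 17.1% of all tested genes. All 33 members in library 5 and 31 in library 6 were above every WT TE library, but 14 in library 7 and 20 in library 8, where the share over all tested genes was 33.8% to 35% in each of the 4. The median coefficient of variation of the members between libraries was 20.8% in TPdh-/- TE, beside 10.4% over all tested genes, and 5.38% in WT TE, beside 6.71%. Without library 5 edgeR called 10 members higher, with 16% of all tested genes, and all 10 were among the 20. They were Myc, Npm1, Gnl3, Ddx21, Polr1a, Nop56, Nop2, Rrp12, Tsr1 and Wdr43. Without library 6 the count was 11, the same 10 and Mybbp1a, with 14.2% of all tested genes. Leaving out library 7 or 8 gave 27 and 25 calls, with 15.9% and 14.7% of all tested genes. Any 1 of the WT TE libraries left out gave 14 calls (13.8% to 14.2%). A TM library left out, though not in this comparison, gave 15 to 20 (15.9% to 17.9%). With only the 2 groups compared, 6 of the 20 were no longer called. In that fit 4866 genes were called in either direction, beside 4823 with all 4 groups. Without library 5 the median was 0.17, and Wdr12, Pes1 and Nhp2 lay below 0. Without library 5 and WT TM library 12 together, 13 members were called higher (18% of all tested genes).

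Myc was at 75.5, 69.1, 56.4 and 59.2 CPM in TPdh-/- TE, against 44.9 to 50.7 in WT TE (log2 difference 0.47 ± 0.11, edgeR adjusted p = 0.011). All 4 TPdh-/- libraries were above all 4 WT libraries. For Gnl3, with the largest difference, the TPdh-/- TE libraries were at 123, 85.1, 59.5 and 62.9 CPM against 47.6 to 57.6 in WT TE (0.64 ± 0.25, edgeR adjusted p = 0.0058). Npm1 was at 2537, 2343, 2234 and 2521 CPM against 1991 to 2117 (0.25 ± 0.05, edgeR adjusted p = 0.0052), with library 8 close to library 5. Ddx21 was at 359, 288, 234 and 263 CPM against 198 to 221 (0.43 ± 0.14, edgeR adjusted p = 0.0028). Polr1a was at 110.0, 94.9, 72.8 and 75.9 CPM against 64.5 to 66.7 (0.44 ± 0.14, edgeR adjusted p = 0.0084). In each of these genes the groups did not overlap, and libraries 7 and 8 were nearer to WT than library 5 was.

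Rrp12 had the smallest adjusted p of the members, with 37.7, 32.6, 27.5 and 26.4 CPM in TPdh-/- TE against 21.4 to 23.8 in WT TE (0.48 ± 0.12, edgeR adjusted p = 0.0020). Wdr43, of the small subunit processome, was at 92.2, 93.3, 87.9 and 84.9 CPM in WT TE and 156, 120.0, 99.8 and 106 in TPdh-/- TE (0.42 ± 0.15, edgeR adjusted p = 0.0027). Nop2 was at 39.7, 41.7, 39.5 and 39.4 CPM in WT TE and 75.3, 62.2, 46.2 and 45.7 in TPdh-/- TE (0.52 ± 0.18, edgeR adjusted p = 0.0053). These 3 also kept their groups apart and their calls without library 5. Dkc1 was called at 212, 165, 118 and 127 CPM against 111 to 122 (0.42 ± 0.20, edgeR adjusted p = 0.018), and library 7 lay within the WT range. It was not called without library 5, nor without library 6.

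Members that were not called included Polr1b, at 43.2, 33.4, 23.4 and 23.6 CPM against 21.1 to 25.5 (0.37 ± 0.22, edgeR adjusted p = 0.061), in which libraries 7 and 8 lay inside the WT range. Ncl was at 1869, 1625, 1419 and 1518 CPM against 1389 to 1471 (0.15 ± 0.09, edgeR adjusted p = 0.11). Fbl was at 204, 189, 162 and 146 CPM against 155 to 177 (0.09 ± 0.12, edgeR adjusted p = 0.47). In Fbl library 8 was below all 4 WT libraries, and in Ncl library 7 was inside their range. By role, 6 of 7 small subunit genes were called higher in TPdh-/- TE (all but Utp20), 4 of 5 general nucleolar genes (all but Ncl), 5 of 11 large subunit genes and 2 of 6 snoRNP genes, Nop56 and Dkc1. Beside them 17.3% of all tested genes were called higher. Without library 5 the counts by role were 3 of 7 (Rrp12, Tsr1 and Wdr43), 2 of 5 (Gnl3 and Npm1), 1 of 11 (Nop2) and 1 of 6 (Nop56), beside 16% of all tested genes. Without library 6 they were 3, 3, 1 and 1, beside 14.2%.

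**Figure D4:**
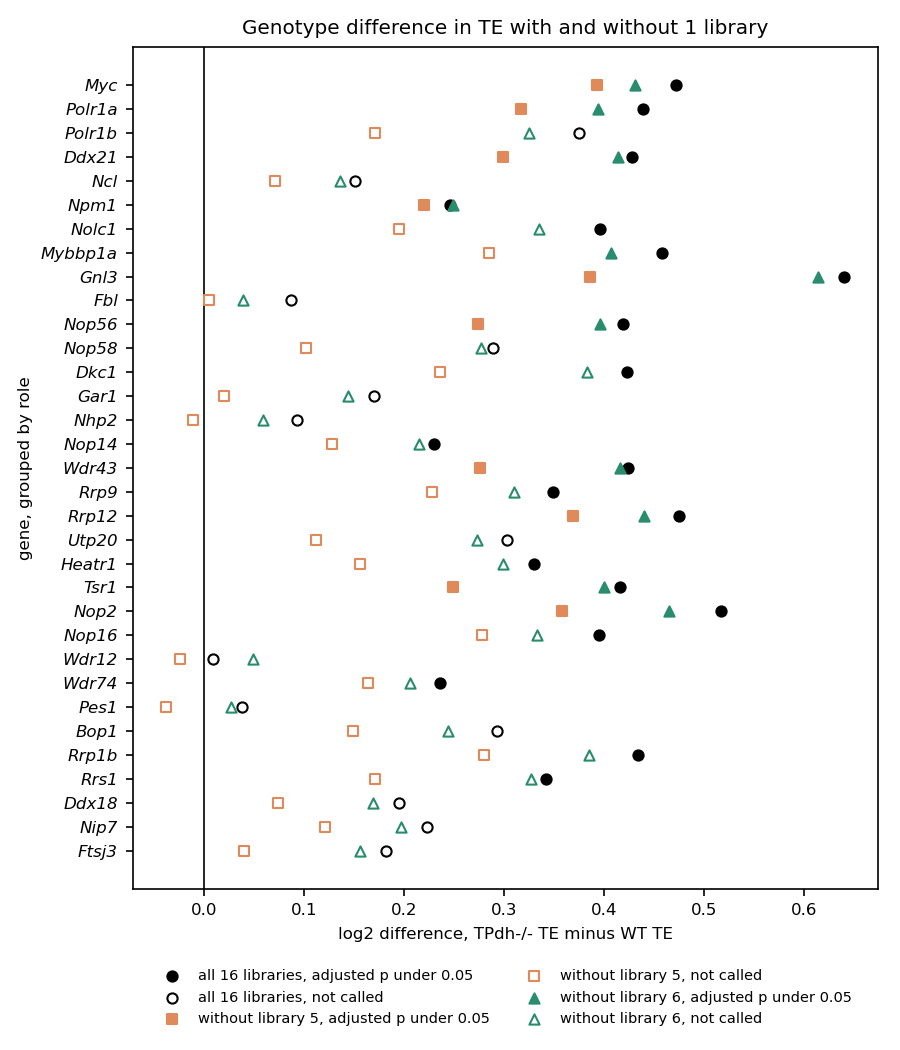
Log2 difference TPdh-/- TE minus WT TE of each member with all 16 libraries (black circles), without library 5 (orange squares) and without library 6 (green triangles), filled where the adjusted p is under 0.05. Without library 5 every point moves left, and 10 of 33 remain filled, beside 20 with all libraries.

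Within TM, no member was called between TPdh-/- and WT. EdgeR called 0 of 33, with 11% of all tested genes called higher and 7.27% lower. At an unadjusted p under 0.05 there were 2 members (Fbl and Rrp9, both lower), beside 31.5% of all tested genes, and DESeq2, limma and every other setting tried also called 0. Of the 33 differences 26 were below 0, the median was -0.07, beside -0.005 over all tested genes, and the range ran from -0.27 (Rrp9) to 0.13 (Myc). All 4 TPdh-/- libraries lay below all 4 WT libraries in Fbl, Nop56 and Nop2 (8.78% of all tested genes did so), and in no member above them. NK markers differed between these groups, as given above, macrophage and monocyte markers (7 genes) summed to 24.7 to 40.8 TPM in TPdh-/- TM and 5.88 to 7.21 in WT TM, and genes of handling and heat shock were at 38.3 to 61.02 TPM in TPdh-/- TM and 91.2 to 142 in WT TM. All 7 macrophage and monocyte markers had a higher median in TPdh-/- TM. Most of that sum was Lyz2, at 17.7 to 28.8 TPM in TPdh-/- TM and 2.14 to 3.14 in WT TM. Adgre1, Csf1r and Cd14 were at most 0.68 TPM in both groups. In the handling list Fosb was at a median of 16.1 TPM in TPdh-/- TM and 42.0 in WT TM. Atf3 went the other way, at a median of 0.32 TPM in TPdh-/- TM and 0.075 in WT TM. Hspa1a also had a higher median in TPdh-/- TM, but was at most 0.03 TPM. Summed CD8 T cell markers were at 3943 to 4135 TPM in TPdh-/- TM and 4833 to 5056 in WT TM, and every gene of that list but Cd3g had a lower median in TPdh-/- TM. Summed proliferation markers were at 1136 to 1559 TPM in TPdh-/- TM and 1527 to 1733 in WT TM, so they overlapped. The part of these markers was not tested.

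Myc in TPdh-/- TM was at 128, 104, 98.2 and 92.3 CPM against 93.8, 89.6, 76.8 and 126 in WT TM (0.13 ± 0.18, edgeR adjusted p = 0.54). Library 12 of WT and library 13 of TPdh-/- were the high ones, and the groups overlapped. Npm1 was at 1318, 1489.9, 1512 and 1572 CPM against 1399 to 1540 (0.00 ± 0.07, edgeR adjusted p = 0.996). Ncl was at 1095, 1217, 1228 and 1252 CPM against 1197 to 1256 (-0.03 ± 0.05, edgeR adjusted p = 0.81). In both the groups overlapped. Fbl was at 124, 132, 134 and 127 CPM against 135 to 162 (-0.18 ± 0.06, edgeR adjusted p = 0.15), below every WT library. Dkc1 differed by 0.01 ± 0.06 (edgeR adjusted p = 0.97), Polr1a by -0.07 ± 0.12 (edgeR adjusted p = 0.72) and Polr1b by -0.07 ± 0.08 (edgeR adjusted p = 0.79). A missed threshold does not show that levels were equal: the SE of the differences of these 7 genes was 0.05 to 0.18.

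**Figure D5:**
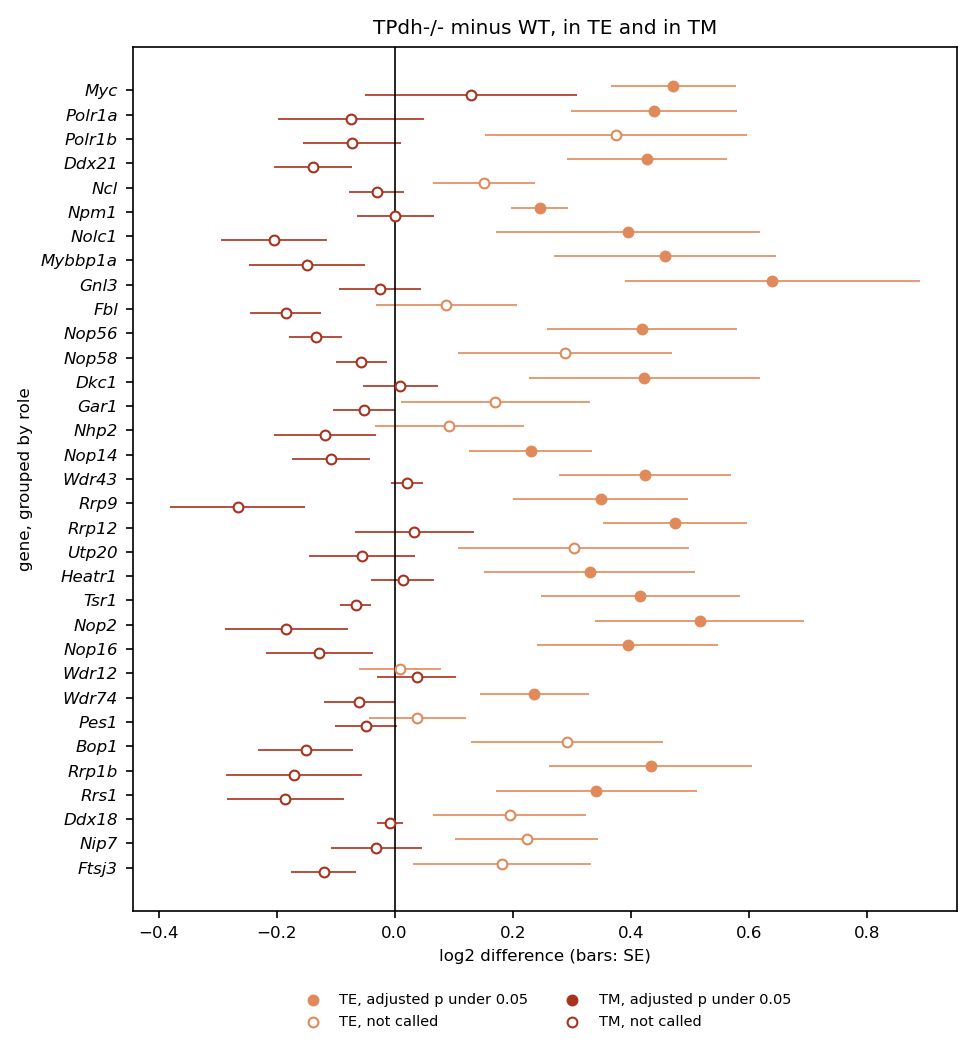
Log2 difference TPdh-/- minus WT of each member in TE (orange) and in TM (red), with the SE as bars and filled points for an adjusted p under 0.05. All 33 TE points lie right of 0 and 20 are filled, while no TM point is filled and 26 lie left of 0.

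The interaction, that is the genotype effect of TM cells less the one of TE cells, was below 0 in 32 of 33 members (Wdr12 was at 0.03), with a median of -0.40, beside -0.01 over all tested genes. By edgeR 10 members were called lower, with 7.51% of all tested genes, and none higher, with 8.05%. At an unadjusted p under 0.05 there were 22 members, all lower (29.5% of all tested genes in either direction), and DESeq2 called 16 lower and limma on log2 CPM 8, with none higher. The 10 were Nop56, Nop2, Nop16, Rrp9, Rrp12, Rrp1b, Polr1a, Ddx21, Mybbp1a and Tsr1. Myc, at -0.34 ± 0.21 (edgeR adjusted p = 0.23), was not among them. This count depends on single libraries. It was 6 without library 5 (7.11% of all tested genes, and 7.13% higher), 3 without library 6 (5.27%), 19 without library 7 (7.95%) and 17 without library 8 (6.75%). Leaving out a library of another group gave 3 to 5 for each of libraries 1 to 4, 4 without library 9, 8 without 10 or 11, 4 without 12, 7 without 14, 5 without 13 or 15 and 4 without 16, with 5.23% to 6.82% of all tested genes lower in these 12 fits.

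Ddx21 had the smallest adjusted p. Its genotype effect was 0.43 in TE and -0.14 in TM, and the TPdh-/- TM libraries were at 344, 387, 345 and 362 CPM (interaction -0.57 ± 0.15, edgeR adjusted p = 0.0090). Nop2 was at 57.4, 56.02, 56.6 and 74.6 CPM in WT TM and 52.2, 55.8, 55.9 and 51.6 in TPdh-/- TM, and its interaction was -0.70 ± 0.20 (edgeR adjusted p = 0.014). Library 12 was apart from the other WT TM libraries in Nop2. Nop56 was at 190.0, 191, 164 and 171 CPM in WT TE, 308, 246, 188 and 216 in TPdh-/- TE, 248, 247, 256 and 268 in WT TM and 234, 244, 232 and 217 in TPdh-/- TM (-0.55 ± 0.17, edgeR adjusted p = 0.018). Its TPdh-/- libraries were thus below WT in all 4 TM libraries and above all WT in 3 of 4 TE libraries. Ddx21, Nop2 and Nop56 were the members called both without library 5 and without library 6.

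Rrp9, the U3 snoRNA-binding protein of the small subunit processome, was at 8.09, 8.12, 8.35 and 7.02 CPM in WT TE, 12.5, 10.6, 8.94 and 8.14 in TPdh-/- TE, 9.795, 8.66, 10.1 and 12.7 in WT TM and 8.51, 8.602, 8.79 and 8.41 in TPdh-/- TM (-0.61 ± 0.19, edgeR adjusted p = 0.024). Rrp1b was at 61.5, 50.8, 36.7 and 39.4 CPM in TPdh-/- TE and 71.4, 66.2, 55.8 and 54.7 in TPdh-/- TM (-0.60 ± 0.21, edgeR adjusted p = 0.031). Nop16, a large subunit factor, was at 21.6, 22.8, 23.3 and 20.1 CPM in WT TE, 35.7, 31.9, 23.8 and 24.1 in TPdh-/- TE, 26.2, 23.1, 29.5 and 28.2 in WT TM and 23.3, 25.99, 25.8 and 22.9 in TPdh-/- TM (-0.52 ± 0.18, edgeR adjusted p = 0.033). In these 3 genes libraries 5 and 6 were the highest TE libraries. The interaction of Npm1 was -0.24 ± 0.08, of Ncl -0.18 ± 0.10, of Fbl -0.27 ± 0.13, of Dkc1 -0.41 ± 0.21 and of Polr1b -0.45 ± 0.24, with edgeR adjusted p of 0.063, 0.23, 0.14, 0.13 and 0.16.

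Other genes of the pathway were taken from 9 lists of 194 tested genes, to be read beside the shares of all tested genes called in the same comparison. In WT (34.3% higher and 34.3% lower), TM against TE, 27 of 44 further genes of the small subunit processome were called higher and 7 lower (list median 0.33), and 29 of 39 further genes of large subunit assembly higher and 2 lower (0.35). Mdn1, a very large ATPase that releases assembly factors from the large subunit, rose from 81.6 to 476 mean CPM (2.55 ± 0.06, edgeR adjusted p = 4.9e-10), and Nat10, an RNA acetyltransferase, from 53.2 to 101 (0.92 ± 0.09, edgeR adjusted p = 3.1e-07). Eif6, which keeps the subunits apart, fell from 42.7 to 30.03 (-0.51 ± 0.05, edgeR adjusted p = 2.7e-05). The list of RNA polymerase I transcription had 8 of 13 higher and 3 lower, and that of snoRNP and RNase MRP proteins 3 of 16 higher and 4 lower. Among 10 snoRNA host genes without a protein 6 were higher and 1 lower, led by Snhg15 (1.73 ± 0.03). In TPdh-/- cells the same comparison (33% and 34.7% of all tested genes) gave 15 higher and 12 lower of 44, 19 and 4 of 39, 4 and 3 of 13, 4 and 8 of 16, and 7 and 2 of 10 in these lists. Without library 5 the small subunit list gave 25 higher and 9 lower (32% and 33.7% of all tested genes).

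Most of the called targets of MYC outside ribosome synthesis were lower in TM. Of 28 such genes 3 were called higher in WT TM than in WT TE and 12 lower, with a list median of -0.16. All tested genes were called higher in 34.3% and lower in 34.3% there, so the count lower in WT was not far above that share. In TPdh-/- 1 was higher and 22 lower, with a median of -0.49, beside 33% and 34.7% of all tested genes. Ldha, the lactate dehydrogenase of glycolysis, fell from 2362 to 575 mean CPM in WT (-2.04 ± 0.10, edgeR adjusted p = 7.7e-11), and Ccnd2, a cyclin of G1, rose from 290.2 to 665 (1.20 ± 0.04, edgeR adjusted p = 4e-11). In the list of 19 genes of the MYC network 8 were higher and 7 lower in WT, shares close to those of all tested genes. Mycn, the paralog of Myc, fell from 5.83 to 0.402 mean CPM (-3.85 ± 0.13, edgeR adjusted p = 9.5e-10), and Mxi1, whose product competes with MYC for MAX, from 52.04 to 11.5 (-2.17 ± 0.09, edgeR adjusted p = 7.8e-12). Mga, another partner of MAX, and Huwe1, a ubiquitin ligase that acts on MYC, rose (0.77 ± 0.04 and 1.02 ± 0.07). Of the 15 growth signalling genes 6 were higher and 4 lower, also close to all tested genes, with Pim1, a kinase gene induced by cytokines, higher (0.69 ± 0.04) and Ddit4, an inhibitor of mTORC1 signalling, lower (-2.51 ± 0.12). Of 10 genes of nucleolar stress and p53, 8 were lower and 1 higher, and Cdkn1a, the cell cycle inhibitor p21, fell from 42.8 to 1.94 mean CPM (-4.46 ± 0.15, edgeR adjusted p = 2.3e-12).

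Between genotypes in TE, where 17.3% of all tested genes were higher and 14.3% lower, 13 of the 44 small subunit genes (list median 0.14) and 9 of the 39 large subunit genes (0.17) were called higher and none lower by edgeR. Riok1, a kinase of late small subunit maturation, was at 63.4 mean CPM in WT and 77.7 in TPdh-/- (0.29 ± 0.05, edgeR adjusted p = 0.00029), and Gtpbp4, a GTPase of the large subunit, at 77.5 and 101 (0.38 ± 0.12, edgeR adjusted p = 0.0017). For RNA polymerase I transcription 2 of 13 were higher and 2 lower, and for snoRNP and RNase MRP proteins 5 of 16 were higher. Of the other targets of MYC 12 of 28 were higher and 1 was lower, led by Slc3a2, the heavy chain of amino acid transporters (0.61 ± 0.08, edgeR adjusted p = 1.4e-06), and Ccnd2 (0.59 ± 0.08, edgeR adjusted p = 1.6e-06). The MYC network list had 1 higher and 6 lower, with Mxd3, an antagonist of MYC, at -0.70 ± 0.08 (edgeR adjusted p = 0.00026). Of the 10 snoRNA host genes 7 were higher and 1 lower, of the 15 growth signalling genes 6 and 2, and of the 10 genes of nucleolar stress and p53 7 and 0, led by Zmat3 (1.02 ± 0.12) and Phlda3 (1.15 ± 0.12), both known targets of p53. Without library 5 (16% and 12.3% of all tested genes) the counts higher were 6 of 44, 7 of 39, 2 of 16, 12 of 28, 5 of 10 host genes, 6 of 15 and 7 of 10, and without library 6 the small subunit list again had 6 and the snoRNP list 2.

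In TM, where 11% of all tested genes were higher and 7.27% lower, 3 of the 44 small subunit genes were lower in TPdh-/- than in WT, among them Utp3 (-0.27 ± 0.06, edgeR adjusted p = 0.00090) and Dhx37 (-0.34 ± 0.13), and 1 of the 39 large subunit genes was higher, Nvl (0.20 ± 0.05). The other lists of ribosome synthesis had at most 1 call in each direction. Of the 10 genes of nucleolar stress and p53, 7 were higher, with Cdkn1a at 1.94 mean CPM in WT TM and 7.22 in TPdh-/- TM (1.89 ± 0.23, edgeR adjusted p = 9.4e-07), and Phlda3 at 1.57 and 3.57 (1.18 ± 0.10, edgeR adjusted p = 3.1e-06). Cdkn1a was lower in TM than in TE in TPdh-/- cells too (-3.68 ± 0.21, edgeR adjusted p = 5.6e-12). Of the 19 MYC network genes 5 were lower and 1 higher, with Bin1, whose product binds MYC, at -0.31 ± 0.06 (edgeR adjusted p = 0.00039). Pim1 was the 1 growth signalling gene called, and was higher (0.45 ± 0.04, edgeR adjusted p = 2.7e-06). Without library 12 the small subunit list had 1 lower and the MYC network 3 lower, while the list of nucleolar stress and p53 again had 7 higher. For the interaction (8.05% and 7.51% of all tested genes) 6 of 44, 5 of 39, 2 of 16 and 12 of 28 genes of the small subunit, large subunit, snoRNP and other MYC target lists were lower and none was higher. RNA polymerase I transcription had 1 higher and 0 lower, snoRNA hosts 1 and 3, growth signalling 1 and 3, nucleolar stress and p53 2 and 1, and the MYC network 0 and 1. Without library 6 the small and large subunit lists had 3 and 0 lower, and without library 5 they had 5 and 2. Among the other MYC targets, which had 9 lower without library 5 or library 6, Slc7a5, a transporter of large neutral amino acids, was at -1.34 ± 0.21 (edgeR adjusted p = 8.2e-05).

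Features that the choice of genes did not use varied among the members. Longer members had higher values of TM minus TE: Spearman's rho between effective length and the log2 difference TM minus TE was 0.53 over the 33 members in WT and 0.53 in TPdh-/-, beside 0.14 and 0.11 over all tested genes, and 0.31 for the genotype effect in TE, beside 0.12. These correlations are over genes measured in the same libraries and are given as a description. Of the 6 members with an E-box in the window 4 were called higher in TPdh-/- TE (Nop2, Mybbp1a, Tsr1 and Wdr43), and of the 21 with a window and no E-box 12 were, beside 17.3% of all tested genes. Without library 5 these counts were 3 of 6 and 4 of 21, beside 16% of all tested genes, so the count of the 21 was near that share. In WT 5 of the 6 and 16 of the 21 were called higher in TM, beside 34.3%. Reads over 15 members can also come from another gene that shares exon positions, since the kit does not keep the strand, among them Nop56, Dkc1, Nhp2, Gnl3, Tsr1 and Polr1a, and 7 members hold 21 snoRNA genes within their boundaries.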

How the data were processed

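RNA was sequenced as 16 poly(A) libraries with a kit that does not keep the strand. Per the labels and methods, the authors aligned reads to mm10 (GRCm38) with STAR 2.7.6a and estimated levels with RSEM 1.3.3. They deposited, for each library, expected counts (estimated reads per gene, not normalized), TPM and FPKM. FPKM values, deposited by the authors as RSEM scaled them for length and depth, were not used. The annotation release was not given in the sources used here, and names and positions came from GENCODE M21, which matched 55141 of 55401 identifiers.

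Expected counts as deposited were rounded and fitted with edgeR 4.0.16 in R 4.3.3 (TMM factors, filterByExpr with a minimum count of 10 and total of 15, quasi-likelihood test, 1 mean for each of 4 groups). Calls used a Benjamini-Hochberg adjusted p under 0.05 over 15277 genes in each of 5 contrasts. CPM used TMM-scaled totals. TPM as deposited served to compare levels between genes. The SE of a log2 difference came from the spread of log2 CPM (prior count 2) between libraries, and the common coefficient of biological variation was 0.10. Depth was 53007257 to 73507566 counts a library.

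Alternatives were other scaling factors (RLE, upper quartile, totals), DESeq2 1.42.0, limma-trend 3.58.1 on log2 CPM and on log2(TPM + 0.1) and log2(TPM + 1), no filter, only the 2 groups compared, each library left out, and libraries 5 and 12 left out together. Near-identical copies were genes with at least 300 bases at 90% identity or more. Full values are printed for Myc, Ncl, Npm1, Fbl, Dkc1, Polr1a and Polr1b, for up to 6 called members with the smallest adjusted p in each contrast and up to 2 of the rarer direction, and for up to 2 called genes per direction in each of 9 lists of 196 pathway genes, of which 194 were tested. Other genes named were chosen after their values were seen. The members, pathway lists and 13 marker lists were chosen with earlier results of these data known. Tables and figures were made with Python 3.11.15, pandas 2.3.3, numpy 2.4.6 and matplotlib 3.10.9.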

Additional observations from a re-analysis of the deposited data

Results flagged for a closer look

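In 9 of 132 sets of 4 libraries (1 gene in 1 group) the highest or lowest library lay far from the other 3, by a rule that chance meets in about 1 of 20 sets. Library 12 of WT TM was high in Nop2 (74.6 CPM), Nop14 (63.7 CPM), Nolc1 (146 CPM) and Ftsj3 (139 CPM) and low in Gnl3 (141 CPM). Library 2 of WT TE was high in Nop2 (41.7 CPM) and Polr1a (66.7 CPM), library 4 of WT TE was low in Ncl (1389 CPM), and library 14 of TPdh-/- TM was high in Dkc1 (211 CPM).

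The genotype effect was called different between TM and TE, by the interaction test of edgeR, in 10 members, all lower. Of all tested genes, 7.51% were called lower and 8.05% higher. The count of members depended on single libraries. It was 3 without library 4 (5.61% of all tested genes lower) and 3 without library 6 (5.27%). It rose only without library 7, to 19 (7.95%), or without library 8, to 17 (6.75%). The log2 interaction was -0.70 in Nop2, -0.61 in Rrp9, -0.61 in Mybbp1a, -0.60 in Rrp1b, -0.57 in Ddx21, -0.55 in Nop56, -0.52 in Nop16, -0.51 in Polr1a, -0.48 in Tsr1 and -0.44 in Rrp12.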

How the results depend on the processing

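No member was called between genotypes in TM under any of the 26 settings. For the interaction, 10 members were called lower, and 17 with upper quartile factors, 18 with library totals, 16 with DESeq2, 23 with limma on log2(TPM + 0.1), 23 on log2(TPM + 1) and 5 without libraries 5 and 12. Over all tested genes, 2378 were called in either direction, and 2378 with upper quartile factors and 2722 with library totals. DESeq2 called 2863, limma 2791 on log2(TPM + 0.1) and 2797 on log2(TPM + 1), and the fit without libraries 5 and 12 called 2268. The median interaction was -0.60 on log2(TPM + 0.1) and -0.20 without libraries 5 and 12. Calls higher in TPdh-/- TE, 20 of 33 (17.3% of all tested genes), were 13 without libraries 5 and 12 (18%). Members gained a call there with library totals (7), upper quartile factors (6) and DESeq2 (1). On log2(TPM + 0.1) 8 gained a call and 1 lost it. Calls were lost with RLE factors (2), limma on log2 CPM (3) and no filter (4). Over all tested genes 4823 were called in either direction, 4952 with library totals, 4724 with upper quartile factors and 4383 on log2(TPM + 0.1). For TM against TE in WT, both TPM scales gave 1 member called lower, medians of 0.78 (+ 0.1) and 0.77 (+ 1), and the opposite sign for Wdr12 (0.22 and 0.22). On log2(TPM + 0.1) the median of all tested genes moved by 0.18 in this contrast, by 0.14 in the TE genotype contrast and by -0.16 in the interaction. In the interaction that median moved by -0.12 on log2(TPM + 1) and by -0.07 with library totals. With 1 library left out, calls ran from 10 to 27 higher in TPdh-/- TE (median 0.17 to 0.42), 22 to 27 higher and 3 to 4 lower for TM against TE in WT, 9 to 18 higher and 4 to 7 lower in TPdh-/- (median -0.01 to 0.20), and 3 to 19 lower for the interaction (median -0.47 to -0.24). Of all tested genes, 13.8% to 17.9% were called higher in TPdh-/- TE in these fits, and 5.23% to 7.95% lower for the interaction. For TM against TE in WT the shares were 31.5% to 34.8% higher and 32.2% to 34.6% lower. In TPdh-/- they were 31.2% to 34.3% and 32.1% to 35.3%. The causes were not tested. No paired analysis was possible because the labels number the libraries 1 to 16 once and no number is shared between groups. Whether depth or the spread between libraries limited these calls was not compared.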
